A study of Oncorhynchus mykiss with 15 samples.

Results

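Antigen presentation and macrophage genes are 62 of the 34965 genes in the deposited count table of rainbow trout (Oncorhynchus mykiss) liver. They were chosen by a rule on names that does not use their values, but earlier results of these data were known when it was set. A gene is a member if its product name contains histocompatibility antigen or beta-2-microglobulin, or if its gene name is one of 23 names of antigen presentation and macrophage genes, with every copy kept. Of those names, 16 were found and 7 (ciita, c1qa, c1qb, c1qc, csf1r, cd68 and timd4) had no gene of that name in the table. The members comprise 9 class I heavy chains, 5 copies of beta-2-microglobulin, 9 genes of class I peptide loading, 3 copies of nlrc5, 7 class II chains, 7 genes of class II processing, 20 macrophage genes and 2 copies of HM13. HM13 is the minor histocompatibility antigen H13, a signal peptide peptidase that is not a histocompatibility chain and came in through its product name.

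Cells show peptides of their own proteins on class I molecules, which consist of a heavy chain and beta-2-microglobulin. The peptides are carried into the endoplasmic reticulum by the transporter TAP, trimmed there by the aminopeptidases ERAP1 and ERAP2, and loaded with the help of tapasin. Macrophages and other professional antigen-presenting cells show engulfed proteins on class II molecules, whose alpha and beta chains are held by the invariant chain CD74 until lysosomal proteases such as cathepsin S cut it away. These roles are known mainly from mammals, and the trout genes carry names given to them by similarity. The liver holds its own macrophages, which in mammals clear haemoglobin complexes through the scavenger receptor CD163.

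Livers were compared in 5 groups of 3 libraries each, labelled N, H3h, H12h, H24h and R3h, to follow the liver through hypoxia of several durations. The group names give 3, 12 and 24 h for the H groups and 3 h for R, and do not spell out the letters. All fish were 150 days old, and no N group matched to each time is given. Livers were frozen at once in liquid nitrogen, and their RNA was extracted with Trizol. Whether the 3 libraries of a group stand for separate fish is not stated, and the p-values then measure only the spread between these libraries, which may be technical. In whole liver, fewer cells of a type and less RNA per cell cannot be told apart.

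The libraries held 45364029 to 70416280 counts, and 21443 to 26212 genes had at least 10 counts in a library. R3h replicate 3 stood apart, with a mean Spearman correlation of 0.743 to the other R3h libraries and 32.3% of its counts in its 10 most abundant genes. Without it, the R3h fold change against N moved by over 1.5 times for 10 of the 48 tested members (9 lower, 1 higher), and those values stand beside the fold changes given. Genes with a mean of at least 0.5 FPKM (fragments relative to gene length and sequencing depth) over the libraries were tested, 17502 genes in all and 48 of the members. Fold changes are log2 values from edgeR's quasi-likelihood test with trimmed-mean (TMM) scaling, given ± SE, and an adjusted p under 0.05 over all 17502 genes counts as a call. Levels are FPKM per library, which carry no such scaling. On log2(FPKM + 1), the median of all tested genes stood at -0.35 in H12h, -0.22 in H24h and -0.29 in R3h relative to N, against -0.07, -0.05 and -0.04 in the fit.

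Of the 48 tested members, 4 passed the test in R3h against N, and all 4 were lower: ERAP2, ERAP1 and a pair of CD163 copies. The background in this comparison was 5.34% of all tested genes called, 1.79% lower. No member passed in H3h, H12h or H24h against N, where 0%, 0.223% and 0.2% of all genes were called. At an unadjusted p under 0.05 there were 0, 5 and 11 members, in backgrounds of 2.19%, 14.3% and 19.7%, and in R3h there were 10, in a background of 26.6%. DESeq2 called 0, 1, 4 and 7 members in H3h, H12h, H24h and R3h against N, where it called 0.08%, 4.73%, 7.2% and 15.9% of all genes. Over the 5 groups together, 3 members passed (ERAP2, ERAP1 and IFI30), in a background of 7.24%. All comparisons against N share its 3 libraries.

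**Figure D1:**
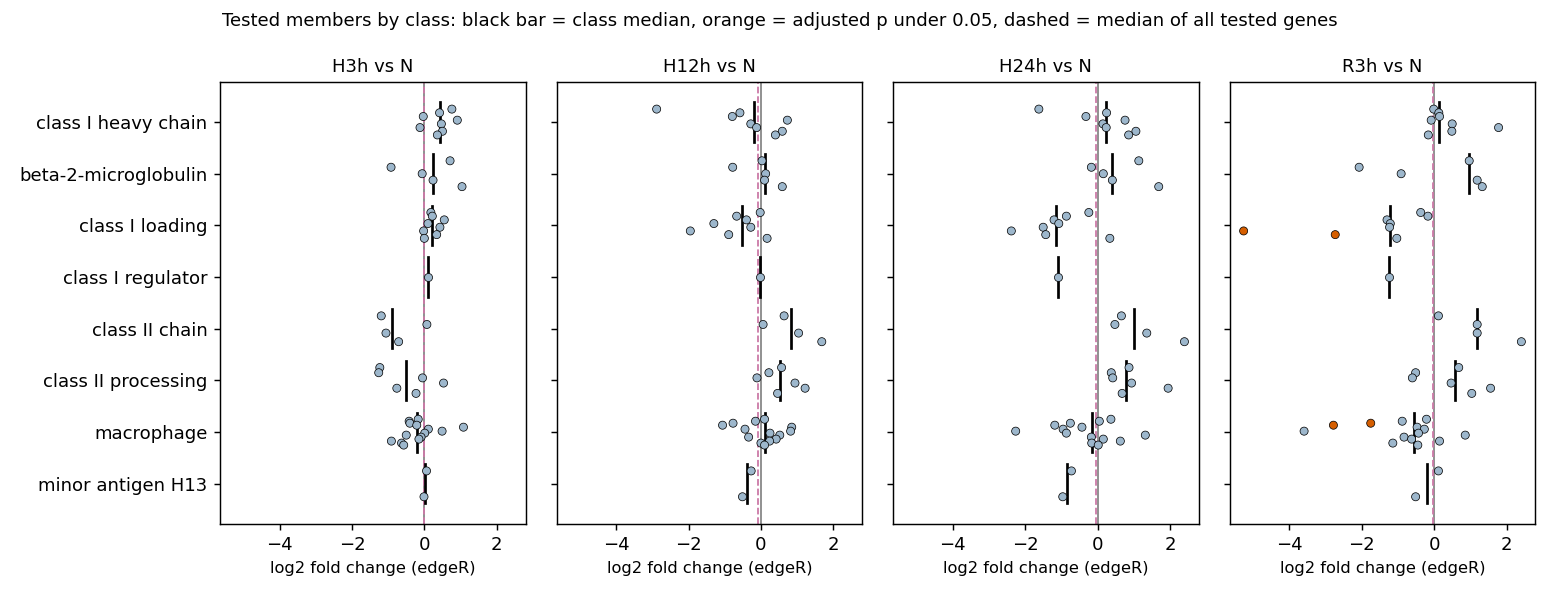
Log2 fold change of each of the 48 tested members (points) in H3h, H12h, H24h and R3h against N, by class of gene, with the class median as a black bar and the median of all tested genes as a dashed line. The orange points are the 4 calls, the peptide-trimming enzymes ERAP2 at -5.26 and ERAP1 at -2.73 and the CD163 copies at -2.78 and -1.75, all in R3h.

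The smallest adjusted p-values among the members were those of the enzymes that trim peptides for class I. ERAP2 (gene 110526886, chromosome 6, 28922211 to 28935482 on the plus strand of an assembly that is not named) stood at 7.78, 2.58 and 6.75 FPKM in N, 8.89, 3.88 and 4.34 in H3h, 0.76, 0.76 and 1.53 in H12h, 0.48, 0.78 and 1.23 in H24h, and 0.04, 0.21 and 0.07 in R3h. The R3h values were the lowest of all 15 libraries, resting on 8, 34 and 11 counts, and the H12h and H24h values lay below every N and H3h value. The fold change in R3h against N was -5.26 ± 0.59 (adjusted p = 0.005), and the test over the 5 groups gave an adjusted p of 0.0037. In H12h and H24h against N it was -1.95 ± 0.50 (adjusted p = 0.1) and -2.38 ± 0.51 (adjusted p = 0.079), neither a call. Both passed by DESeq2 (adjusted p = 0.0075 and 0.00052), which called 4.73% and 7.2% of all genes there. In R3h against H24h, where edgeR called 0% of all genes, the fold change was -2.87 ± 0.54 (adjusted p = 0.52), again with no overlap.

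ERAP1 (gene 110535123, chromosome 11, 73747423 to 73768598 on the minus strand) is the partner enzyme in the same compartment. Its libraries read 22.8, 12.9 and 17.6 FPKM in N, 37.5, 10.4 and 22.8 in H3h, 5.86, 4.22 and 10.4 in H12h, 3.96, 4.69 and 6.91 in H24h, and 2.0, 2.57 and 1.48 in R3h. As for ERAP2, the R3h libraries were the lowest of all, and those of H12h and H24h lay below all N libraries, while H3h spanned the N range. ERAP1 fell in R3h against N (-2.73 ± 0.41, adjusted p = 0.011) and changed over the 5 groups (adjusted p = 0.011). Leaving out N replicate 1 or N replicate 3 ended the R3h call (adjusted p = 0.055 and 0.066). Its difference in H24h against N was -1.43 ± 0.39 (adjusted p = 0.11), and in R3h against H24h -1.30 ± 0.39 (adjusted p = 0.67). DESeq2 called the H24h difference against N (adjusted p = 0.015), with 7.2% of all genes.

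A second gene named ERAP2 (gene 110536151, chromosome 11) is the more abundant copy. It stood at 7.38, 9.62 and 7.92 FPKM in N, 9.19, 7.23 and 10.1 in H3h, 5.58, 4.72 and 10.5 in H12h, 6.98, 8.73 and 9.77 in H24h, and 3.89, 3.28 and 2.3 in R3h. Only the R3h libraries were low, all 3 below every other library, and H24h did not differ from N by more than its spread. The fold change was -1.03 ± 0.35 in R3h against N (adjusted p = 0.086) and -1.37 ± 0.35 in R3h against H24h (adjusted p = 0.67). DESeq2 called the R3h difference against N (adjusted p = 0.039), with 15.9% of all genes. Correlations between copies, here and below, used TMM-scaled log2(CPM + 0.1) over the 15 libraries, not FPKM. CPM is counts relative to sequencing depth. Between both ERAP2 copies the Pearson r was 0.56 and the Spearman rho 0.29 (permutation adjusted p = 0.067 and 0.45 over 30 pairs of copies). Without the 2 farthest libraries r was 0.24.

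**Figure D2:**
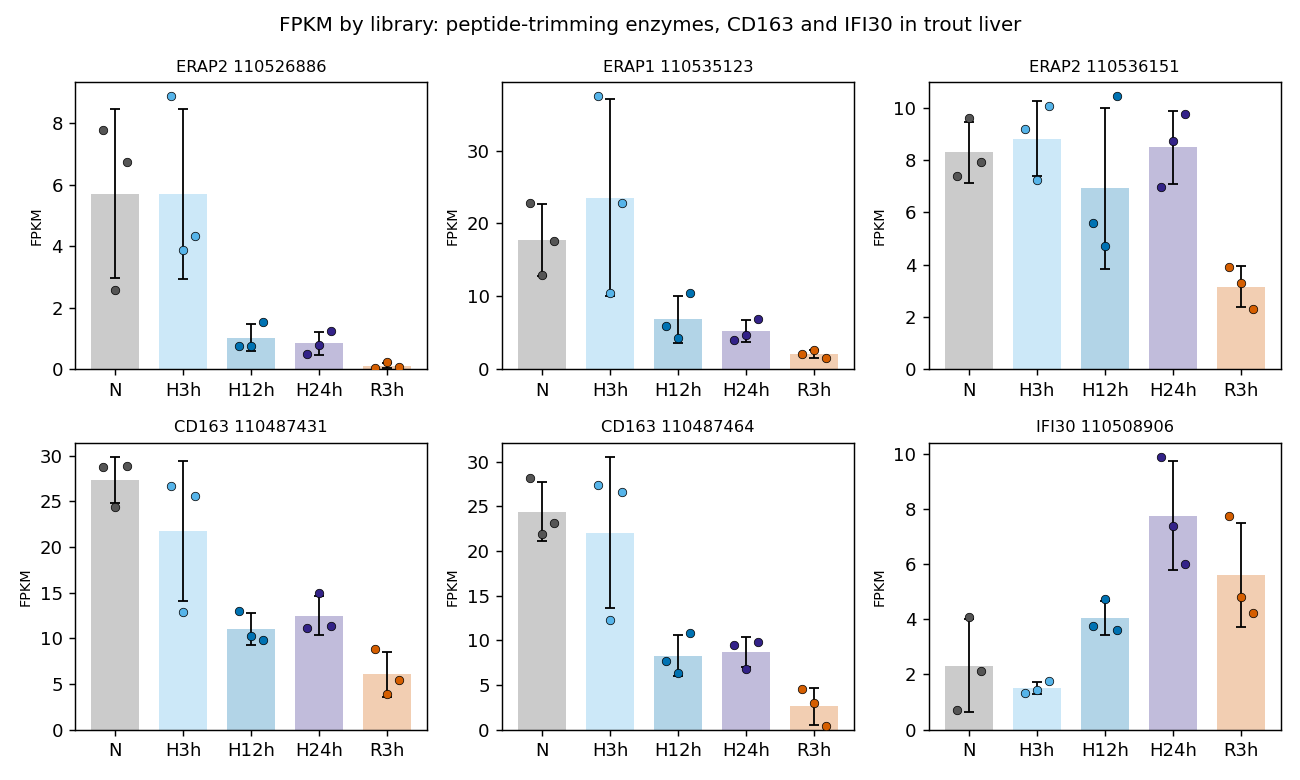
FPKM in each library (points) with the group mean (bar) and SD (whisker, 3 libraries) for ERAP2, ERAP1, the second ERAP2 copy, the 2 abundant CD163 copies and IFI30 110508906. R3h points of both ERAP2 copies, ERAP1 and both CD163 copies lie below all N points, with ERAP2 110526886 at 0.04 to 0.21 in R3h against 2.58 to 7.78 in N, while IFI30 is at 4.24 to 7.76 in R3h against 0.73 to 4.10 in N.

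The peptide transporter and tapasin gave no call in any comparison by edgeR with all libraries. TAP1, one subunit of the transporter, read 29.5, 11.1 and 23.4 FPKM in N, 63.4, 11.7 and 23.5 in H3h, 10.4, 7.28 and 15.9 in H12h, 5.02, 6.91 and 9.38 in H24h, and 3.48, 4.09 and 11.7 in R3h. The H24h libraries were all below N, and R3h replicate 3 overlapped N. The fold change was -1.20 ± 0.55 in H24h (adjusted p = 0.25) and -1.30 ± 0.55 in R3h (adjusted p = 0.15), each against N, and without R3h replicate 3 it was -2.02 in R3h. Over the 5 groups TAP1 passed by DESeq2 (adjusted p = 0.02), which called more of all genes than edgeR. The most abundant copy of TAP2, the other subunit (gene 110496230), stood at 8.65, 3.18 and 9.5 FPKM in N, 18.1, 3.85 and 7.95 in H3h, 2.57, 0.84 and 9.49 in H12h, 2.5, 1.37 and 2.05 in H24h, and 0.76, 0.98 and 5.0 in R3h. Here too R3h replicate 3 and 1 H12h library reached the N range, and the differences of -1.50 ± 0.78 in H24h (adjusted p = 0.31) and -1.23 ± 0.78 in R3h (adjusted p = 0.32) did not pass, nor did the R3h difference of -2.56 ± 0.78 without R3h replicate 3 (adjusted p = 0.063). In H24h against H12h this copy was among the 4 members with the smallest p, at -1.22 ± 0.78 (adjusted p = 0.51).

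Tapasin, the chaperone that holds class I at the transporter (TAPBP, gene 100136299), read 45.6, 33 and 55 FPKM in N, 114, 15.2 and 40.3 in H3h, 16.9, 11.2 and 32.2 in H12h, 13.8, 18.3 and 25.8 in H24h, and 8.61, 3.36 and 78.4 in R3h. R3h replicate 2 was the lowest library and R3h replicate 3 lay above all of N. The R3h fold change was -0.17 ± 0.86 (adjusted p = 0.92), and -2.38 ± 0.70 without R3h replicate 3 (adjusted p = 0.058). Its H12h and H24h libraries all lay below N, with -0.67 ± 0.87 (adjusted p = 0.76) and -0.86 ± 0.87 (adjusted p = 0.6). The second copy of TAPBP was under 0.5 FPKM on average and was not tested. The only tested copy of nlrc5, the mammalian activator of class I genes, stood at 1.45, 0.87 and 1.27 FPKM in N, 2.22, 0.89 and 0.93 in H3h, 0.70, 0.16 and 1.75 in H12h, 0.39, 0.34 and 0.62 in H24h, and 0.09, 0.16 and 0.91 in R3h. It was low in 2 of 3 R3h libraries, and its difference of -1.24 ± 0.75 did not pass (adjusted p = 0.3). Without R3h replicate 3 the difference was -2.80 ± 0.68 and passed (adjusted p = 0.034). All H24h libraries of nlrc5 lay below N, at a fold change of -1.09, where 19.4% of all genes lay lower without overlap. The other 2 copies of nlrc5 averaged 0.140 and 0.215 FPKM.

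Among the 8 tested loading genes (ERAP1, 2 copies of ERAP2, TAP1, 3 copies of TAP2 and TAPBP), 2 fell in R3h against N, ERAP1 and ERAP2 110526886, which also passed over the 5 groups, and none passed between any other pair of groups tested. Their median fold changes against N were 0.20 (H3h), -0.54 (H12h), -1.13 (H24h) and -1.22 (R3h), beside 0, -0.07, -0.05 and -0.04 for all tested genes. All 8 values were negative in R3h, 7 were negative in H12h and H24h, and 7 were positive in H3h. Of all tested genes, 49.9%, 53.9%, 52.3% and 51.6% were negative in H3h, H12h, H24h and R3h. FPKM groups did not overlap for 6 of 8 in H24h and 4 of 8 in R3h, all lower, where 19.4% and 21.6% of all genes lay lower without overlap. Without R3h replicate 3 the R3h median was -2.42, and TAP1 (-2.02 ± 0.56, adjusted p = 0.049) and nlrc5 (-2.80 ± 0.68, adjusted p = 0.034) passed. The R3h and H24h medians were negative under the scalings tried and without N replicate 1, N replicate 3 or R3h replicate 3, from -2.42 to -1.04 in R3h and from -1.42 to -0.91 in H24h.

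None of the 8 tested class I heavy chains, which display the peptides, passed in any comparison by edgeR with all libraries. Their medians against N were 0.45 (H3h), -0.20 (H12h), 0.25 (H24h) and 0.14 (R3h), and the R3h median was -0.33 on log2(FPKM + 1), where that of all genes was -0.29. The most abundant, a BOLA-type class I heavy chain (gene 110496224, chromosome 18), fell into separate levels that crossed the groups. It read 12.5, 8.5 and 354 FPKM in N, 18.6, 270.0 and 16.1 in H3h, 12, 5.1 and 242 in H12h, 325, 10.9 and 28.2 in H24h, and 421, 1.98 and 462 in R3h. A total of 6 libraries lay at 242 to 462 FPKM and 9 at 1.98 to 28.2 FPKM, none in between, and every group held libraries of both kinds. The highest library was 233 times the lowest, and the fold changes against N had SEs of 1.85 to 1.90.

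The steadiest heavy chain, an RLA-type class I chain on the same chromosome (gene 110496241), read 67.5, 61.1 and 73.4 FPKM in N, 141, 73.1 and 87.6 in H3h, 65.3, 68.5 and 78.3 in H12h, 73.4, 122 and 134 in H24h, and 87.4, 68.4 and 59.6 in R3h. The H24h libraries lay above those of N, although the lowest H24h and the highest N library both read 73.4 FPKM, and the difference of 1.06 ± 0.35 did not pass (adjusted p = 0.14). DESeq2 called this difference (adjusted p = 0.031), with 7.2% of all genes. An F10-type chain on chromosome 14 (gene 110488340) ranged from 42.4 to 298 FPKM. It was 69.2 ± 24.1 FPKM in H12h, below every N library, 135 ± 101 FPKM in R3h and 169 ± 67.0 FPKM in N (SD, n = 3 each), and the fold change of -0.79 ± 0.57 in H12h against N did not pass (adjusted p = 0.55). Popy-E (gene 110488326), another chain of chromosome 14, was 0.720 ± 0.211 FPKM in H12h and 8.28 ± 7.57 FPKM in N (SD, n = 3 each). Its fold change of -2.88 ± 1.09 did not pass (adjusted p = 0.25), and N replicate 2, at 0.80 FPKM, lay within the H12h range. In R3h it was -0.01 with all libraries and -2.45 ± 0.92 without R3h replicate 3 (adjusted p = 0.11). Over the 5 groups Popy-E passed by DESeq2 (adjusted p = 0.021), which called more of all genes than edgeR. By edgeR it passed there without R3h replicate 3 (adjusted p = 0.028).

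Beta-2-microglobulin, the small chain shared by all class I molecules, had 5 copies in a row on chromosome 16. The most abundant (gene 110491889) stood at 511, 300.4 and 809 FPKM in N, 1240.4, 451 and 1024 in H3h, 487, 227 and 425 in H12h, 560.5, 315 and 2168 in H24h, and 615, 149.8 and 1564 in R3h. Single libraries of H24h and R3h were the highest, every group overlapped N, and the fold change in R3h was 0.97 ± 0.74 (adjusted p = 0.41), and 0.06 ± 0.73 without R3h replicate 3. In H24h against H12h it was 1.11 ± 0.74 (adjusted p = 0.53), among the 4 smallest p of that comparison. This gene overlaps a second copy (gene 110491894) on the same strand, and their levels moved together, with r = 0.95 and rho = 0.92 (permutation p = 1e-05, the smallest that 100000 resamples give, adjusted p = 0.0003) and r = 0.90 without the 2 farthest libraries. Reads of such copies cannot be told apart with certainty.

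The copies did not all move alike. Copy 110491891 ranged from 34.0 to 2062 FPKM, a 60.7-fold range, and its r with 110491889 was -0.03. Copy 110491890 was at 0 in H12h replicate 2 and R3h replicate 3, against 20.8 to 191 FPKM in the other 13 libraries. Its H3h (36.05 to 108 FPKM) and R3h (0 to 66.05 FPKM) libraries all lay below those of N (115 to 191 FPKM). In R3h, 21.6% of all genes lay lower without overlap. The R3h fold change against N was -2.07 (adjusted p = 0.43), and -1.47 without R3h replicate 3 (adjusted p = 0.51). Summed over the 5 copies, beta-2-microglobulin stood at 352 FPKM in R3h replicate 2 and 3917 FPKM in H24h replicate 3, an 11.1-fold range, and the group sums were 1420 ± 974 FPKM in R3h and 1690 ± 1140 FPKM in N (SD, n = 3 each). The median of the 5 copies in R3h against N was 0.97 in the fit, and -0.14 on log2(FPKM + 1) with all libraries. In the fit without R3h replicate 3 it was -0.32, so its sign turned both on the scale and on that library.

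**Figure D3:**
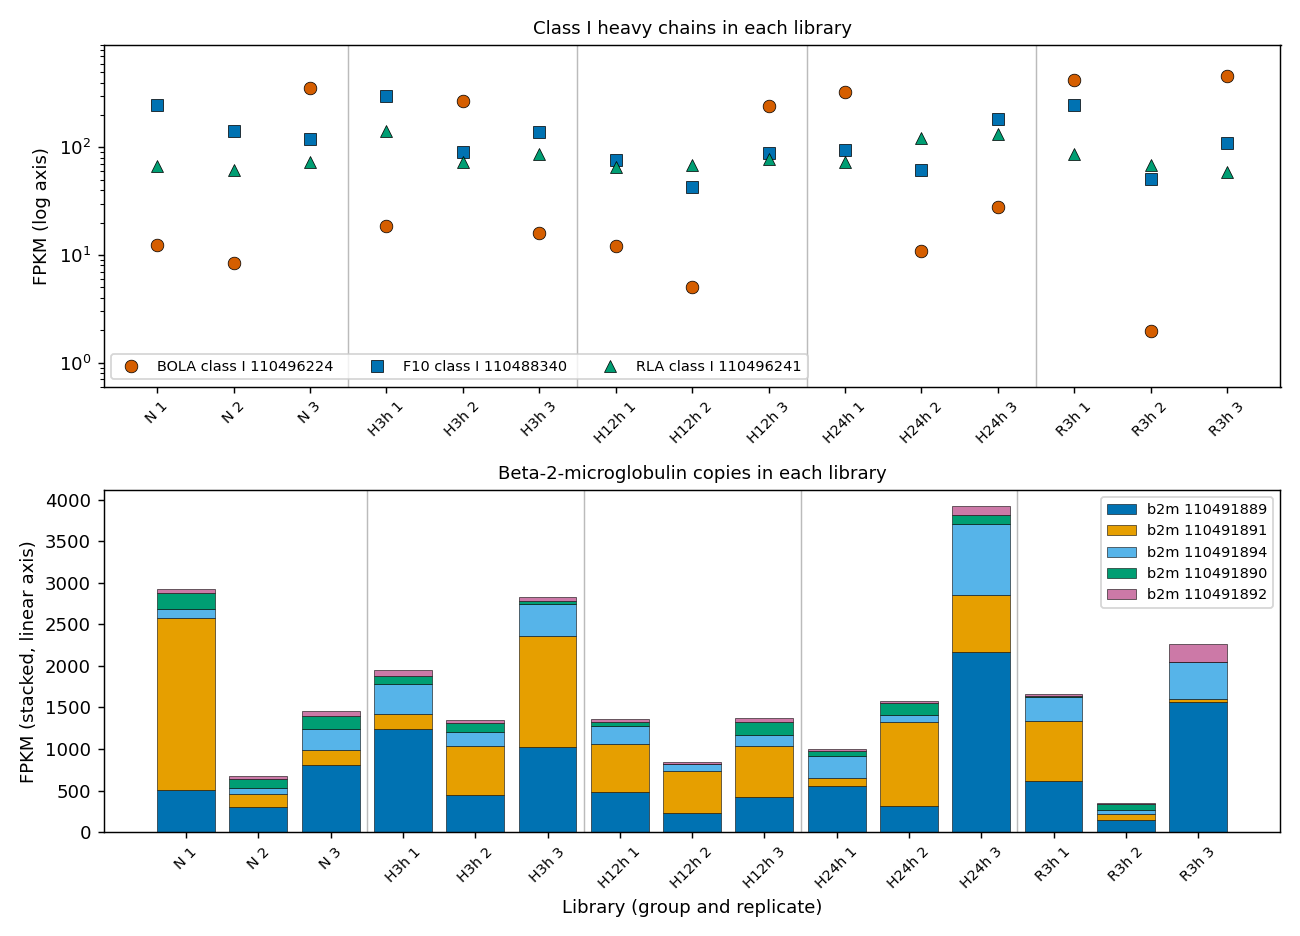
FPKM of 3 class I heavy chains in each library (upper plot, log axis) and of the 5 beta-2-microglobulin copies stacked (lower plot, linear axis), in the order N, H3h, H12h, H24h, R3h. The BOLA-type chain is either above 242 or below 28.2 FPKM in every group, and the beta-2-microglobulin sum ranges from 352 to 3917 FPKM with overlap between all groups.

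The class II chains, which display peptides of engulfed proteins, gave no call by edgeR with all libraries. Their largest differences from N were upward in H12h, H24h and R3h. The class II alpha chain HLA-DPA1 (gene 110494409, chromosome 17) stood at 8.62, 38 and 24.5 FPKM in N, 8.82, 11 and 17.2 in H3h, 32.1, 42 and 33.8 in H12h, 61.7, 46.5 and 47.6 in H24h, and 69.2, 32.7 and 26.8 in R3h. The H24h libraries were all above N, R3h overlapped N, and N replicate 1 was lower than every H3h library. Fold changes against N were -1.06 ± 0.57 in H3h (adjusted p = 1), 1.36 ± 0.57 in H24h (adjusted p = 0.22) and 1.19 ± 0.57 in R3h (adjusted p = 0.2), and the test over the 5 groups gave an adjusted p of 0.067. HLA-DPA1 passed over the 5 groups by DESeq2 (adjusted p = 0.0027) and by limma on log2(FPKM + 1) (adjusted p = 0.044). Each of these called more of all genes than edgeR did. By edgeR it passed without N replicate 2 (adjusted p = 0.03) or R3h replicate 3 (adjusted p = 0.041). The class II beta chain H2-Eb1 (gene 100500791), its neighbour 2527 bases away on the same strand, read 4.2, 22.3 and 11.6 FPKM in N, 5.2, 5.92 and 7.36 in H3h, 16.6, 13.1 and 15.4 in H12h, 24.1, 16.8 and 10.8 in H24h, and 10.8, 19.5 and 4.67 in R3h. N spanned nearly the whole range of the other groups, and the differences were -1.19 ± 0.61 in H3h (adjusted p = 1), 0.66 ± 0.60 in H24h (adjusted p = 0.56) and 0.12 ± 0.60 in R3h (adjusted p = 0.92).

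The 4 tested class II chains had medians against N of -0.89 (H3h), 0.84 (H12h), 1.01 (H24h) and 1.19 (R3h). All 4 values were positive in H12h, H24h and R3h, and 3 were negative in H3h. Without N replicate 1 the medians were -1.22, 0.43, 0.68 and 0.95. In R3h, 3 of the 4 were positive without N replicate 1 or without N replicate 3. The R3h value of DLA class II 110492192 was 1.19 with all libraries and 0.07 without R3h replicate 3. On log2(FPKM + 1) the signs of the medians were the same, at -0.39, 0.38, 0.61 and 0.44. H2-Aa, an alpha chain among these 4, averaged 0.504 FPKM, just past the filter, and DESeq2 called it over the 5 groups (adjusted p = 0.046). The 3 untested class II chains averaged 0.0060 to 0.0940 FPKM.

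CD74, the invariant chain that guards the class II groove, was expressed from a pair of copies. The more abundant (gene 100136156, chromosome 14) stood at 36.1, 163 and 107 FPKM in N, 36.5, 36.8 and 66.8 in H3h, 81.5, 95.2 and 88 in H12h, 219, 80.4 and 49.3 in H24h, and 62.3, 101 and 16.1 in R3h. The H3h libraries were at the low end of N, an H24h library was the highest of all, and R3h replicate 3 was the lowest library. The fold change was -1.26 ± 0.71 in H3h (adjusted p = 1) and -0.51 ± 0.70 in R3h (adjusted p = 0.66). The other copy (gene 100136155, chromosome 29) was -1.23 ± 0.68 in H3h (adjusted p = 1) and 0.68 ± 0.67 in R3h (adjusted p = 0.53). Their levels had r = 0.83 and rho = 0.84 over the 15 libraries (permutation adjusted p = 0.0018 and 0.0031), r = 0.80 without the 2 farthest libraries and r = 0.91 within groups. Together with HLA-DPA1 and H2-Eb1 they were the 4 members with the smallest p in H3h against N.

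IFI30, a lysosomal thiol reductase that unfolds proteins for class II, gave the only edgeR call with all libraries among the class II members. Copy 110508906 (chromosome 28) read 0.73, 4.1 and 2.13 FPKM in N, 1.32, 1.45 and 1.77 in H3h, 3.76, 4.75 and 3.6 in H12h, 9.89, 7.37 and 5.99 in H24h, and 7.76, 4.8 and 4.24 in R3h. All H24h and R3h libraries lay above all N libraries, and it changed over the 5 groups (adjusted p = 0.04). Against N alone the difference was 1.95 ± 0.57 in H24h (adjusted p = 0.12) and 1.56 ± 0.56 in R3h (adjusted p = 0.1), neither a call. Both passed by DESeq2 (adjusted p = 0.019 and 0.044) and by edgeR without N replicate 2 (adjusted p = 0.038 and 0.034). H24h and R3h were not tested against H3h. The call over the 5 groups was lost when any of 10 of the 15 libraries was left out, with adjusted p from 0.016 to 0.11, and with the replicate number as a block (adjusted p = 0.057).

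The more abundant IFI30 copy (gene 110530130, chromosome 8) stood at 21, 36.4 and 25.3 FPKM in N, 18.5, 22.4 and 33.5 in H3h, 20.3, 35.7 and 24.5 in H12h, 23.4, 41.2 and 42.8 in H24h, and 36.6, 37.6 and 62.2 in R3h. R3h lay above N in all 3 libraries, with 1.04 ± 0.45 (adjusted p = 0.16). Cathepsin S, the protease that frees class II of CD74, read for its main copy (CTSS 100136261) 24.7, 25.6 and 56.5 FPKM in N, 39.3, 23.8 and 42.9 in H3h, 27.6, 15.6 and 26 in H12h, 29.1, 32.7 and 52.5 in H24h, and 24.1, 14.3 and 13.6 in R3h. R3h lay below N in all libraries, N replicate 3 was the highest of all, and the difference was -0.60 ± 0.40 (adjusted p = 0.34). The lesser copy (CTSS 110487241) was higher by 0.94 ± 0.38 in H12h, among the 4 smallest p there, and did not pass (adjusted p = 0.28). The 6 tested genes of class II processing had medians of -0.50, 0.51, 0.78 and 0.57 in H3h, H12h, H24h and R3h against N. Without N replicate 1 these were -0.86, 0.19, 0.44 and 0.21.

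**Figure D4:**
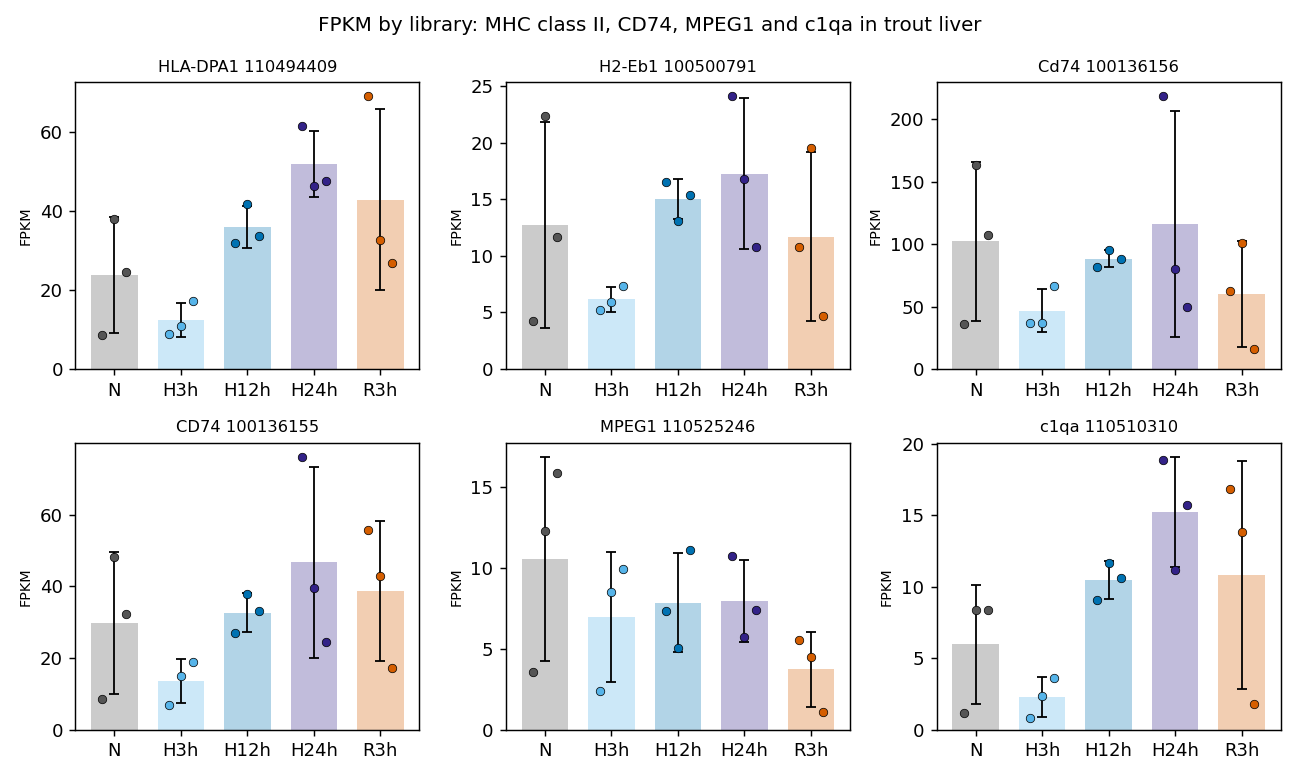
FPKM in each library (points) with the group mean (bar) and SD (whisker, 3 libraries) for the class II chains HLA-DPA1 and H2-Eb1, both CD74 copies, MPEG1 and c1qa. Single N libraries are as low as H3h for HLA-DPA1 and both CD74 copies, and HLA-DPA1 at 46.5 to 61.7 FPKM in H24h lies above its 8.62 to 38.0 FPKM in N.

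Among macrophage genes, CD163 fell in R3h. The longer of the neighbouring copies on chromosome 13 (gene 110487431, 58812703 to 58819480) stood at 28.8, 24.4 and 28.9 FPKM in N, 26.7, 12.9 and 25.6 in H3h, 13.1, 10.3 and 9.78 in H12h, 11.2, 15 and 11.3 in H24h, and 8.8, 3.93 and 5.4 in R3h. The R3h libraries were the lowest of all, H12h and H24h lay between them and N without touching N, and the fold change in R3h was -1.75 ± 0.40 (adjusted p = 0.031). The copy 5726 bases before it on the same strand (gene 110487464, 58805955 to 58806977) read 28.2, 21.9 and 23.2 FPKM in N, 27.4, 12.3 and 26.6 in H3h, 7.72, 6.34 and 10.8 in H12h, 9.49, 6.77 and 9.87 in H24h, and 4.5, 3.02 and 0.38 in R3h. Again the R3h libraries were the lowest and those of H12h and H24h lay below N. The lowest of all, R3h replicate 3, held 16 counts. This copy fell by 2.78 ± 0.60 in R3h (adjusted p = 0.027). Over the 5 groups the adjusted p was 0.079 and 0.052 for the longer and the shorter copy.

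These neighbours may share reads, and their levels had r = 0.81 over the libraries (rho = 0.78, permutation adjusted p = 0.0038 and 0.0044, r = 0.77 without the 2 farthest libraries) but 0.34 within groups. If each read was counted once, the counts of both neighbours together do not depend on how reads were split between them. The counter is not given, so this is not known. The summed counts came to 18.5, 7.57 and 8.15 CPM (TMM-scaled) in R3h, against 45, 49.8 and 43.9 CPM in N, with no overlap. In H12h they were 28.6, 25.7 and 22 CPM and in H24h 21.1, 33.8 and 20.5 CPM, also below all of N. The call of the longer copy was lost without R3h replicate 3 (-1.62, adjusted p = 0.054), and that of the shorter was kept (-2.25, adjusted p = 0.015). Without N replicate 1 or N replicate 3 the adjusted p was 0.11 and 0.12 for the longer copy and 0.096 and 0.11 for the shorter. A further tested copy (Cd163 110498616) was 0.0667 ± 0.0586 FPKM in R3h and 1.09 ± 1.01 FPKM in N, at a fold change of -3.59 (adjusted p = 0.16). DESeq2 called this difference (adjusted p = 0.048), with 15.9% of all genes. The copy was also among the 4 smallest p in H24h against H12h (-3.08 ± 1.48, adjusted p = 0.36).

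No other macrophage member passed by edgeR with all libraries. MPEG1, a pore-forming protein of macrophages, read 3.59, 12.3 and 15.9 FPKM in N, 2.41, 8.53 and 9.98 in H3h, 7.33, 5.08 and 11.1 in H12h, 10.8, 5.75 and 7.4 in H24h, and 5.57, 4.53 and 1.09 in R3h. R3h was low but overlapped N, at -1.14 ± 0.68 (adjusted p = 0.29). SPI1, the transcription factor PU.1 of myeloid cells, stood for its main copy (gene 100136249) at 2.4, 4.18 and 7.16 FPKM in N, 1.46, 4.91 and 5.81 in H3h, 3.62, 2.03 and 5.03 in H12h, 4.67, 4.04 and 5.7 in H24h, and 5.31, 2.99 and 0.57 in R3h. Its difference in R3h was -0.21 ± 0.69 (adjusted p = 0.87), with R3h replicates 1 and 2 inside and R3h replicate 3 below the N range. The scavenger receptor Marco (gene 110501689) was 4.05 ± 0.675 FPKM in R3h and 9.51 ± 7.83 FPKM in N (SD, n = 3 each), with adjusted p = 0.48.

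Progranulin (GRN), a secreted and lysosomal growth factor, had 4 tested copies. The main copy (gene 110491467) was 16.0 ± 5.71 FPKM in R3h, 10.7 ± 7.0 FPKM in H24h and 25.4 ± 8.15 FPKM in N (SD, n = 3 each), with adjusted p = 0.67 in R3h and 0.19 in H24h. Copy 110499061 had the smallest p of all members in H24h against H12h, at -1.11 ± 0.31 (adjusted p = 0.13), where 0% of all genes were called. By edgeR it was the only member there at an unadjusted p under 0.05, in a background of 14.5%, and it was the only member DESeq2 called there, with 4.59% of all genes. The mannose receptor MRC1 was near the filter, and its main copy (gene 110489949) averaged 0.503 FPKM with adjusted p = 0.79 in R3h.

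The 14 tested macrophage genes had medians against N of -0.19 (H3h), 0.10 (H12h), -0.17 (H24h) and -0.55 (R3h), with 12 of 14 negative in R3h, where 51.6% of all genes were negative. The H12h median was -0.21 without N replicate 1, and -0.24 on log2(FPKM + 1), where that of all genes was -0.35, while the R3h median lay between -0.92 and -0.47 under the same settings as for the loading genes. FPKM groups did not overlap for 3 of the 14 in R3h, all lower, a share near the 21.6% of all genes. HM13, the peptidase, showed no call, with -0.96 ± 0.67 and -0.72 ± 0.44 for its copies 110532284 and 110492616 in H24h.

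Macrophage genes that the names missed were looked up by their RefSeq symbol or by a deposited gene name that begins with csf1r. The complement chains c1qa, c1qb and c1qc and 4 copies of csf1r1, a growth factor receptor of macrophages, were found in these ways. None of the 4 that were tested passed. For c1qa the levels were 1.17, 8.36 and 8.35 FPKM in N, 0.81, 2.38 and 3.62 in H3h, 9.05, 11.7 and 10.6 in H12h, 18.8, 11.2 and 15.7 in H24h, and 16.9, 13.9 and 1.77 in R3h. Its N replicate 1, H3h replicate 1 and R3h replicate 3 were low, as they were for c1qb and c1qc, so the low libraries crossed the groups. The 4 tested genes had a median of 0.23 in R3h against N. The fold change of c1qa was 1.57 ± 0.81 in H24h (adjusted p = 0.3) and 1.2 ± 0.8 in R3h (adjusted p = 0.35).

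Across all members, the median fold change against N was 0 (H3h), 0.05 (H12h), 0.15 (H24h) and -0.24 (R3h), beside 0, -0.07, -0.05 and -0.04 for all tested genes. In R3h against H24h it was -0.38 (all genes -0.01), with 34 of 48 negative (50.7% of all genes) and 9 of 48 whose FPKM groups did not overlap, all lower, where 4.34% of all genes lay lower without overlap. None of these 9 passed, and no gene of the table did. By edgeR, 7 members were at an unadjusted p under 0.05 in that comparison, in a background of 7.36%, and DESeq2 called 1, ERAP2 110526886, with 0.291% of all genes.

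Other genes of the pathways were followed through lists of known names. Of 43 tested genes of the class I pathway beside the members, 4 fell in R3h against N, where 1.79% of all genes did. Among them were the tapasin relative Tapbpl 100136300 (-1.61 ± 0.41, adjusted p = 0.04) and a cytosolic peptidase (THOP1 110524109, -1.29 ± 0.34, adjusted p = 0.044), which had adjusted p = 0.061 and 0.059 without R3h replicate 3. Over the 5 groups 4 passed, where 7.24% of all genes did, THOP1 and the calnexin chaperone (CANX 110488909, adjusted p = 0.032) among them. The list's medians against N were -0.18 (H12h), -0.50 (H24h) and -0.03 (R3h), with 31 of 43 negative in H24h, where 52.3% of all genes were negative. Single R3h values of the list turned on R3h replicate 3. Without it, the proteasome subunit psmb9 100135882 moved from 0.07 to -2.13 (adjusted p = 0.04) and Psmb8 100305311 from -0.73 to -2.55 (adjusted p = 0.065). The proteasome activator PSME2 110535191 moved from 1.65 to -1.61 (adjusted p = 0.15). Calreticulin CALR 110508839 moved the other way, from 1.14 to 1.54 (adjusted p = 0.025). FPKM groups did not overlap, lower, for 18 of 43 in H24h, beside 19.4% of all genes, and for 18 of 43 in H12h, beside 28% of all genes. The list holds copies of calreticulin, calnexin and the protein disulfide isomerase PDIA3 beside proteasome genes, peptidases and transcription factors. Summed, its 49 genes came to 1010 to 1480 FPKM in H24h, against 1880 to 2320 FPKM in N, and the share of each kind in this sum was not tested.

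Of 28 tested genes of the class II pathway beside the members, which are lysosomal proteases and the transcription factors NFYA, NFYB, NFYC, CREB1 and IRF8, 1 passed over the 5 groups, where 7.24% of all genes did. It was cathepsin K (CTSK 100136757, adjusted p = 0.049), at 1.20 ± 0.37 in H24h against N (adjusted p = 0.13). The next smallest p was that of cathepsin D (ctsd 110486128, adjusted p = 0.12). The list's medians against N were -0.48 in H12h (21 of 28 negative, 12 lower without overlap), -0.24 in H24h (22 of 28 negative) and -0.22 in R3h, below 0 where those of the class II members were above it. Of all tested genes, 53.9% and 52.3% were negative in H12h and H24h, and 28% lay lower without overlap in H12h. Of 41 other macrophage genes, 1 rose in R3h against N, collectin-12 (COLEC12 100136662, 1.70 ± 0.43, adjusted p = 0.039, and 0.05 as rounded without R3h replicate 3), a scavenger lectin that entered the list through the RefSeq symbol cd209. In that comparison 5.34% of all tested genes were called, in either direction. The list's median in R3h was 0.07, with 22 genes positive and 19 negative, while that of the macrophage members was -0.55. The transcription factor mafb 110527907 came next over the 5 groups (adjusted p = 0.11). Copies of Irf8, which is on both lists, turned on R3h replicate 3 in R3h against N. Without it, Irf8 110489699 moved from -0.73 to -3.04 (adjusted p = 0.019) and Irf8 110535315 from -0.39 to -2.56 (adjusted p = 0.018). IRF8 110506608 moved from -0.38 to -0.76 (adjusted p = 0.28) and IRF8 110526480 from 0.70 to 0.84 (adjusted p = 0.47).

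Levels of markers of other cells are given here, and their part in these results was not tested. In R3h against N, 1 gene each was called among 10 neutrophil, 25 erythrocyte, 26 hepatocyte and 19 stellate cell genes tested. There was no call among 16 cholangiocyte, 9 endothelial and 9 lymphocyte genes, and 5.34% of all tested genes were called. The neutrophil enzyme MPO 110532736 fell in R3h against N (-4.73 ± 0.76, adjusted p = 0.015). The 10 tested neutrophil genes had a median of -1.09 there, with 3 positive and 7 negative. Both lect2 copies were among the positive ones, at 0.01 and 0.53, and stood at -0.87 and -4.80 without R3h replicate 3. All 23 neutrophil genes summed to 8890 to 70200 FPKM in R3h, against 39700 to 56600 FPKM in N. Nearly all of that sum was lect2, so it says little about the rest of the list. The summed level of the 21 genes without lect2 was 11.8 to 39.5 FPKM in R3h, against 13 to 335 FPKM in N. No gene of the list was at 0 in all libraries. The 31 erythrocyte genes summed to 643 to 2100 FPKM in H24h and 335 to 1420 FPKM in R3h, against 238 to 512 FPKM in N. Their median fold change against N was 2.14 in H24h and 1.55 in R3h, and 1 passed in R3h (hbb1 100136207, 2.72 ± 0.74, unadjusted p = 0.0026, adjusted p = 0.05 as rounded, and 0.11 without R3h replicate 3). Hepatocyte genes summed to 87000 to 91500 FPKM in R3h and 56400 to 78200 FPKM in N, and the liver marker TTR 110524641 rose in R3h (2.22 ± 0.58, adjusted p = 0.043, and 0.079 without R3h replicate 3). Of the 26 tested hepatocyte genes, 16 were positive and 10 negative in R3h against N, with a median of 0.41 and the lowest at -3.95. The 21 lymphocyte genes summed to 9.99 to 16.3 FPKM in R3h and 11.9 to 25.7 FPKM in N. Cholangiocyte genes summed to 171 to 252 FPKM in R3h and 165 to 290 FPKM in N, and endothelial genes to 12.4 to 18.4 FPKM in R3h and 13.1 to 14.3 FPKM in N. Stellate cell genes summed to 91.1 to 103 FPKM in R3h and 55.6 to 83.5 FPKM in N, and the stellate cell gene LRAT 110534420 rose in R3h (2.35 ± 0.64, adjusted p = 0.049, and 0.095 without R3h replicate 3). The 19 tested stellate cell genes had a median of -0.01 in R3h against N, with 9 positive and 10 negative.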

How the data were processed

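Per the file headers, the authors deposited raw counts per gene and library and FPKM values they computed from them. The gene length that the ratio of both columns implies varied little between libraries (median coefficient of variation 0.22%). TopHat2 2.1.1 and Bowtie2 2.2.8 were used, per the submitters' processing notes. The sources used here do not give the genome build, the annotation, the strand setting or the counter, so near-identical or overlapping copies may share reads. Coordinates are those of the deposited table. Symbols came also from RefSeq (USDA_OmykA_1.1), whose table held 31271 of the 34965 gene identifiers and 58 of the members. No coordinates were taken from it.

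The 17502 genes whose FPKM averaged 0.5 or more, which held 99.0% or more of each library's counts, were tested with edgeR 4.0.16 in R 4.3.3. The quasi-likelihood test used TMM scaling, all 15 libraries and 5 group means, and two-sided p-values with Benjamini-Hochberg adjustment within a comparison. The SE is approximate, the size of the log2 fold change over the root of the F statistic. The procedure was tested on simulated data. Alternatives were DESeq2 1.42.0, its size factors, no filter, limma 3.58.1 on log2(FPKM + 1) and log2(FPKM + 0.1), the replicate number as a block, and leaving out each library. Counts of single copies carry counting error, which is largest for members with few counts.

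The members and lists were chosen with earlier results of these data known. The genes named are every called member, the most abundant copy of each name, the 4 members with the smallest p in each comparison, and of the other pathway lists the called genes and the 2 with the smallest p over the groups, except for a result that is not reported here. RLA class I 110496241 stands also as the steadiest heavy chain and the further copies of a family beside their main copy, and these, HM13, c1qa and the markers, were chosen after their values were seen.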

Additional observations from a re-analysis of the deposited data

How the results depend on the processing

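ERAP2 110526886 kept its call in R3h against N under every alternative run, with adjusted p from 0.0025 to 0.03 when a library was left out. ERAP1 lost it without N replicate 1 (adjusted p = 0.055) or N replicate 3 (0.066). CD163 110487431 lost it also without the filter (-1.63, adjusted p = 0.053). No value changed sign among the called members. Leaving out a library gave 1 to 5 called members in R3h against N, with 1 left without N replicate 1 or N replicate 3, where only 11 and 7 of all genes were called. It gave 2 to 9 over the 5 groups, 9 without R3h replicate 3. It gave 0 to 2 in H24h against N, 0 to 1 in H24h against H12h, and 0 in the other comparisons. DESeq2 called 1 member in H12h against N, 1 in H24h against H12h, 4 in H24h against N, 1 in R3h against H24h, 7 in R3h against N and 11 over the 5 groups, while it called 827, 804, 1261, 51, 2777 and 4502 of all genes. Limma on log2(FPKM + 1) called 1 member in H24h against N and 7 over the groups, and on log2(FPKM + 0.1) 6 over the groups, where they called 0.28%, 11.6% and 6.89% of all genes. In R3h against N each called 5 members, with 10.8% and 8.36% of all genes. The cause was not tested.

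Member medians on log2(FPKM + 1) and log2(FPKM + 0.1) were -0.30 and -0.43 in H12h, -0.12 and -0.14 in H24h and -0.61 and -0.78 in R3h against N, where all genes had -0.35 and -0.54, -0.22 and -0.34, and -0.29 and -0.47. Leaving out a library moved the member median from -0.05 to 0.12 in H3h, -0.10 to 0.31 in H12h, -0.06 to 0.27 in H24h and -0.63 to -0.06 in R3h against N, from 0.02 to 0.19 in H24h against H12h and from -0.68 to -0.17 in R3h against H24h. The labels do not say whether replicate numbers pair the libraries. Deviations from the group means had r from -0.23 to 0.38 between same-numbered libraries (median 0.03, 30 pairs). Between differently numbered libraries r was -0.43 to 0.41 (median -0.03, 60 pairs). With 3 libraries a group, this check cannot exclude a pairing. With the replicate block, 4 members were called in R3h against N and 2 over the groups, where IFI30 was lost (adjusted p = 0.057), and medians were 0.03, 0.09, 0.14 and -0.30 in H3h, H12h, H24h and R3h against N. Of the recomputed values, 242 summary values stayed close to those reported and 25 moved, and 128 values of single genes kept their call and 19 lost it. With 3 libraries a group, a difference that did not pass may still be present, in any member. This limit was widest for genes with a large spread, such as the BOLA-type class I chain.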
